A study of Mus musculus with 28 samples.

Results

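K36M and WT cells were compared at day 6 of the reprogramming of mouse embryonic fibroblasts (MEFs), across all genes of a poly(A) RNA-seq count table. The comparison rests on 4 of the 28 libraries of the series, WT d6 replicates 1 and 2 and K36M d6 replicates 1 and 2, chosen by their labels. The other libraries cover both genotypes at d0 (MEFs), d2, d4 and d8, as passaged induced pluripotent stem cells (iPSCs), and as MEFs without OKSM, the factors Oct4, Klf4, Sox2 and Myc. Both day 6 groups had received OKSM and were grown in a reprogramming medium called AGi, and the labels call both a reprogramming intermediate. In the count table the WT columns are named H3.3, while the labels do not say how K36M was introduced, what drives it, or whether replicates were separate cultures. The spread behind each p-value is thus that of the libraries at hand and may be technical. Of 37620 listed genes, 16932 had enough counts to be tested.

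K36M is a lysine-to-methionine change at position 36 of histone H3. Methyl groups on that lysine are placed by NSD1, NSD2, ASH1L and SETD2, mark the bodies of active genes, and a K36M histone is known to act as a dominant inhibitor of these enzymes. Fibroblasts that receive OKSM first lose mesenchymal genes and gain epithelial ones, a step called the mesenchymal-to-epithelial transition, and later switch on the pluripotency network. TGF-beta signalling is known to hold fibroblasts in the mesenchymal state.

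Total gene counts were 20502258 and 19700596 in WT and 21239022 and 23800882 in K36M, given throughout as replicate 1 and then replicate 2. Levels are CPM, read counts scaled to the TMM-corrected library size, and they are not divided by gene length, so levels were not compared between genes. A gene "rose" or "fell" in K36M where edgeR's quasi-likelihood test gave a Benjamini-Hochberg adjusted p below 0.05 over all tested genes. Fold changes are log2 values of K36M minus WT, ± SE. The spread was estimated over all 28 libraries, so it is not that of day 6 alone. Where a replicate is left out, its group holds 1 library. Whether a gene passed there rests on the spread of the other groups and says nothing of the spread in that group.

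Both K36M libraries differed from WT in a way that followed gene structure. In the quintile of genes with the shortest exon length, the median log2 difference from the WT mean was 0.61 in K36M replicate 1 and 0.48 in replicate 2. In the quintile with the longest, it was -0.66 and -0.44. At d4 and d8 the same medians lay between -0.04 and 0.08 in all 4 K36M libraries. Replicate 1 also followed GC content, with a median of -0.46 in the GC-poorest quintile and 0.51 in the GC-richest, while no quintile of replicate 2 had a median above 0.16. The K36M replicates differed from each other with an SD of 0.653 on the log2 scale, and 11.3% of genes were over 2-fold apart, against SDs of 0.331 to 0.419 and 2.45 to 4.3% of genes in the other 13 groups. Calls followed length as well: 49.5% of the shortest quintile rose and 13.8% fell, against 20.3% and 56.6% of the longest quintile. A fit with each library corrected for GC content and exon length, called the corrected fit, was therefore run beside the uncorrected one. It was chosen after seeing the data, and it brought these shares to 30.0% and 25.8% in the shortest quintile and 38.3% and 39.8% in the longest. Such a correction also removes any true difference that follows gene length, and whether the pattern came from the libraries or from the cells was not tested.

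**Figure D1:**
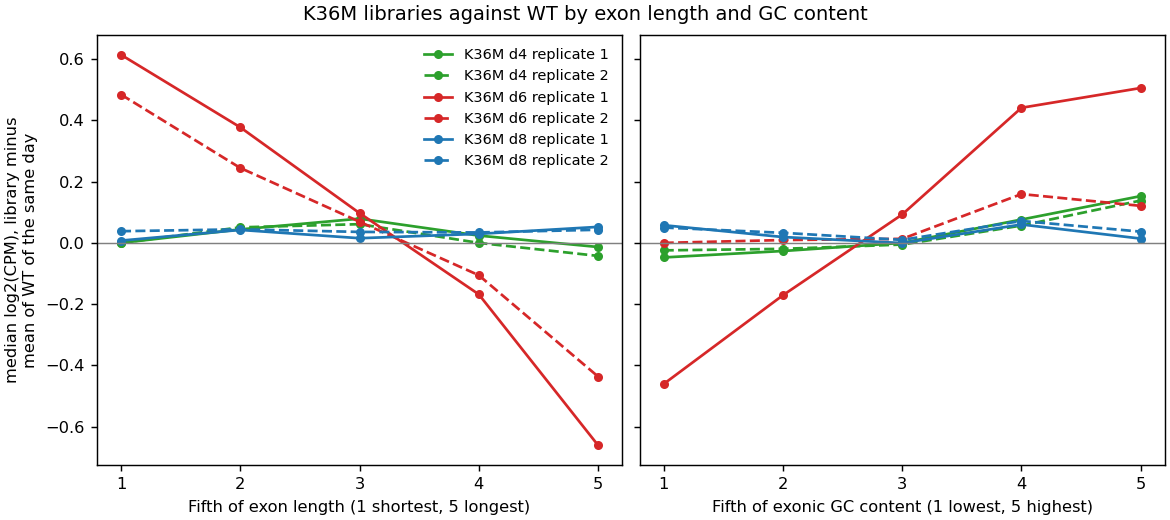
Median log2 CPM of each K36M library minus the WT mean of the same day (vertical axis), by quintile of exon length (left) and of exonic GC content (right); lines join the 5 quintiles of a library, solid for replicate 1 and dashed for replicate 2. Both d6 libraries fall from short to long genes, from 0.61 to -0.66 and from 0.48 to -0.44, and of the 6 libraries drawn d6 replicate 1 has the steepest rise with GC content.

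At day 6, 12013 of 16932 tested genes (70.9%) differed between K36M and WT, 6313 higher (37.3%) and 5700 lower (33.7%). Fitted changes of at least 2-fold were called for 6522 genes (38.5%), of which 3395 rose (20.1%) and 3127 fell (18.5%). Both K36M libraries lay outside the range of both WT libraries for 13295 genes (78.5%), and for 11758 genes (69.4%) that were also called. In 5185 genes (30.6%) each K36M library by itself was at least 2-fold from the WT mean. Without K36M replicate 1, 10455 of the 12013 calls were made again in the same direction and 0 in the opposite one. Without K36M replicate 2 these numbers were 11013 and 3, and in the corrected fit 10120 and 207. A fit of the 4 day 6 libraries alone made 7731 of the calls again and 0 in the opposite direction. It has fewer samples to estimate the spread, and it takes no spread from groups of other days. Replicates of those groups were closer (SDs of 0.331 to 0.419) than those of K36M d6 (0.653). The calls and p-values over all 28 libraries rest on this shared spread, and how far it is too small for K36M d6 was not tested. With shares this high, a count of genes that changed says little about a list unless its direction is uneven, so lists are described by direction and size. The median log2 change of all tested genes was 0.08.

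Genes silent or nearly silent in WT led the rises. Dppa5a, a marker of early embryo and pluripotent stem cells on chromosome 9 (78214859 to 78215984 of mm9), stood at 0.0919 and 0.241 CPM in WT and 399.7 and 135 in K36M. Both K36M libraries were far above WT, and replicate 1 was the higher of them. Its log2 fold change was 10.62 ± 0.711 (edgeR adjusted p = 5.55e-10), or 9.63 without K36M replicate 1. Dppa4, a nuclear protein of pluripotent cells, was at 0.0919 and 0 CPM in WT and 52.2 and 29.6 in K36M, a ratio of 857 (95% exact binomial interval 237 to 7081, for counting error alone). Ooep, an oocyte and early embryo protein, was at 0 and 0.0481 CPM in WT and 32.2 and 12.9 in K36M, a ratio of 939 (168 to 37108). WT held 1 to 3 counts of Dppa4, Ooep, Clec2i, Zfp42 and Gpa33, so the intervals are wide, and the lowest lower bound, for Gpa33, was 77.4.

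A further 4 genes had 0 counts in both WT libraries. With the floor set at 3 counts for both WT libraries together, Ubd, a ubiquitin-like protein, was at least 265-fold higher in K36M, Aire, a transcription factor best known from the thymus, at least 243-fold, Rbmxl2, a germ cell RNA-binding protein, at least 151-fold, and Mep1b, a metalloprotease, at least 145-fold. The K36M replicates stood at 20.3 and 17.2 CPM for Ubd and at 30.5 and 5.02 CPM for Aire. Aire was thus several times higher in replicate 1 than in replicate 2, while Ubd was alike in both. Fam25c rose from 0.0919 and 0.241 to 56.2 and 90.9 CPM, and here replicate 2 was the higher library.

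Matrix and signalling genes that WT cells expressed at day 6 were among the largest falls. Fmod, which codes for the collagen-binding proteoglycan fibromodulin (chromosome 1, 135933831 to 135944854), was at 59.3 and 56 CPM in WT and 0.0889 and 0.161 in K36M, with a log2 change of -8.77 ± 0.292 (edgeR adjusted p = 7.15e-17). Prelp, a related proteoglycan, went from 114 and 109 CPM in WT to 0.978 and 0.602 in K36M, and Fbn2, the microfibril protein fibrillin-2, from 95.3 and 78 to 0.578 and 0.643. For each of these genes all WT values were far above both K36M values. Pappa, a protease that cleaves IGF-binding proteins, fell by 8.02 on the log2 scale, and Il1rn, the interleukin-1 receptor antagonist, by 8.07. Foxd1, a mesenchymal transcription factor, had -7.93, with -9.87 without K36M replicate 1 and -7.07 without replicate 2. Megf10 held 3 counts in K36M and was 260.4 times lower there (88.7 to 1266). Gda, Akr1c18 and Mef2c were also among the 12 largest falls, and each was at or below 1.24 CPM in both K36M libraries.

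**Figure D2:**
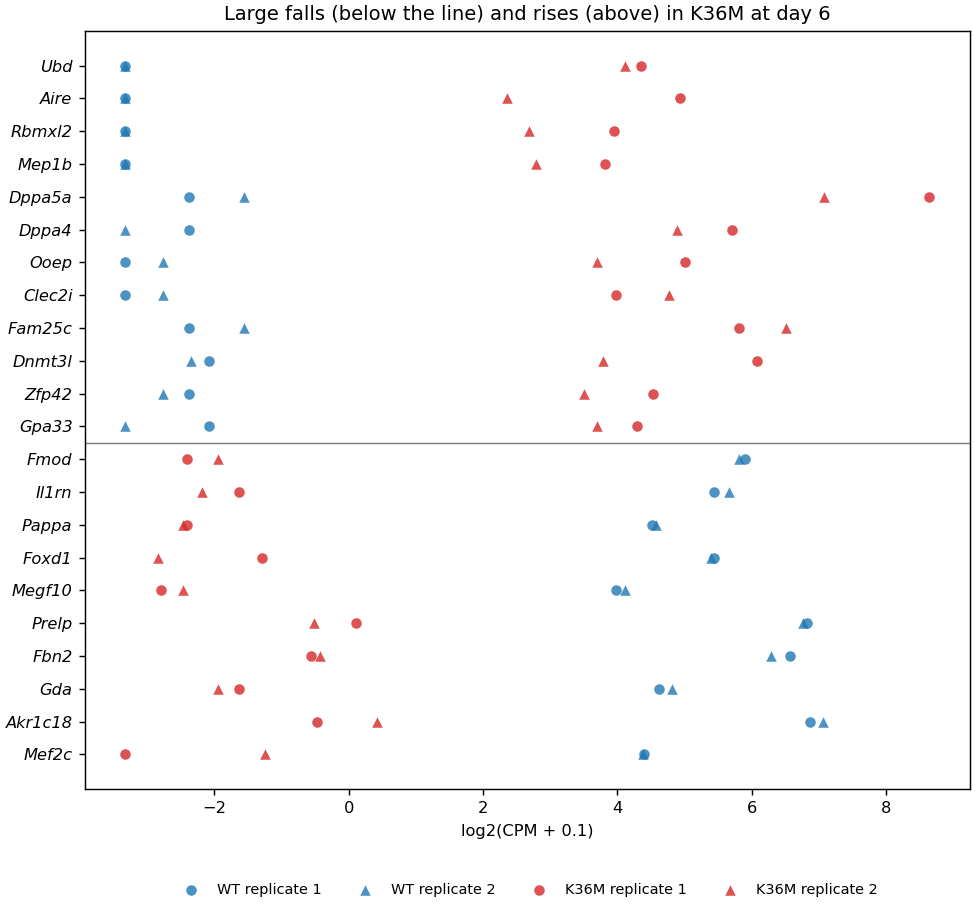
CPM of the 12 genes with the largest rises (above the line) and of 10 of the 12 with the largest falls (below it), on a log2 scale after adding 0.1; each point is 1 library, circles for replicate 1 and triangles for replicate 2. The WT and K36M points of each gene are well apart, and Aire, Dppa5a and Dnmt3l show a wide gap between the K36M replicates.

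Gene lists were read next, each by the count of members that rose or fell over all genes, and by the median of its members. The counts of every list stand beside 37.3% of all tested genes that rose and 33.7% that fell. Among 405 list members tested, 200 rose and 154 fell. The lists of pluripotency, epithelial, germline and cell division genes had high medians with both K36M libraries, and the mesenchymal, Hox and TGF-beta lists low ones. Medians of these lists had the same sign when either K36M library was left out and in the corrected fit. A few members had 0 counts in 1 group, and their fitted values depend on the prior count and are no bounds.

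**Figure D3:**
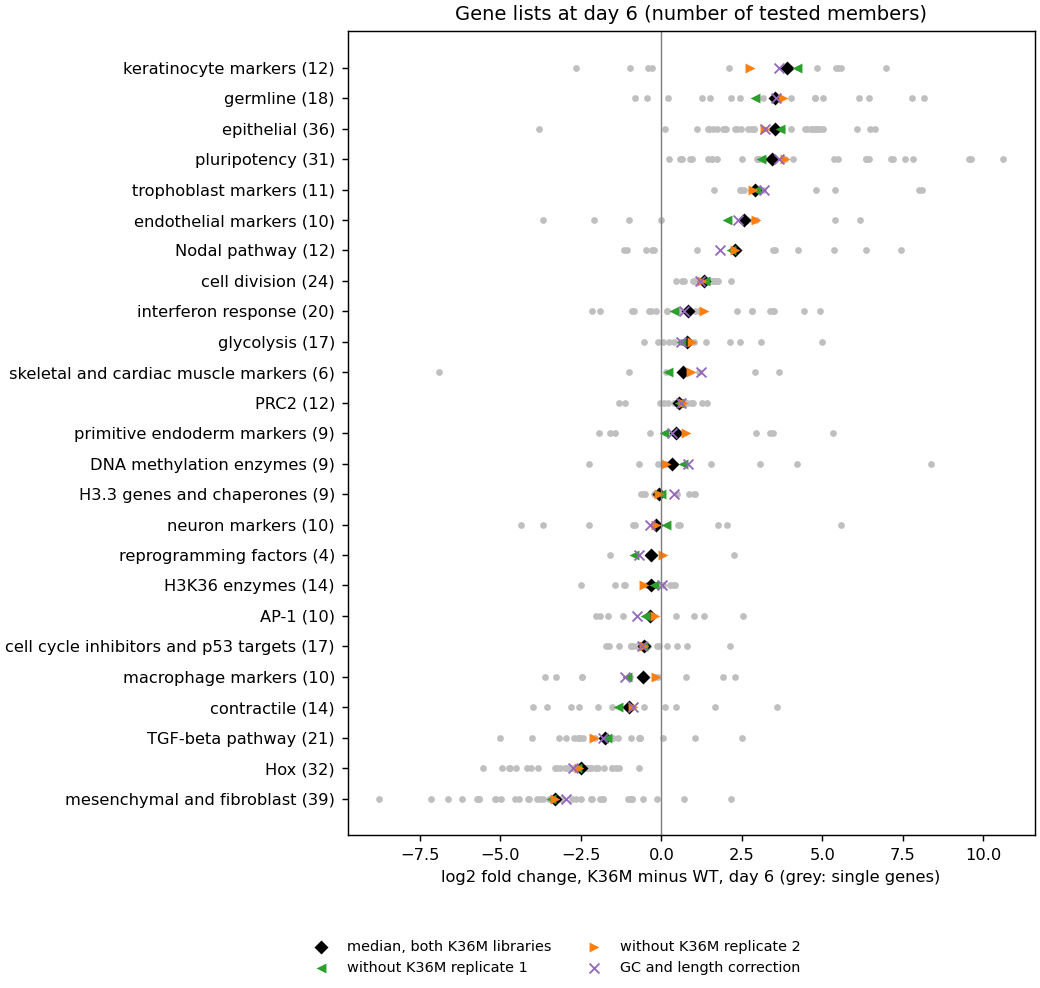
Log2 fold change of each tested list member (grey) and the list median with both K36M libraries (black), without replicate 1 (green), without replicate 2 (orange) and in the corrected fit (purple), for 25 lists with the number of tested members. Epithelial genes have a median of 3.53 and mesenchymal genes one of -3.31, while the H3K36 enzymes lie at -0.32 and, corrected, at 0.01.

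Epithelial genes were higher almost without exception: 34 of 36 rose (all tested genes 37.3%), 1 fell and 1 did not pass, with a median log2 change of 3.53 against 0.08 over all genes. All 34 that rose did so by at least 2-fold, and the same 34 to 1 split was found without either K36M library and in the corrected fit. Cdh1, which codes for the adhesion protein E-cadherin, was at 142 and 117 CPM in WT and 638 and 804 in K36M. Epcam, an epithelial cell adhesion molecule, was at 54.6 and 51 CPM in WT and 589 and 675 in K36M. Replicate 2 was the higher K36M library for both, and the genotypes did not overlap. Their log2 fold changes were 2.48 ± 0.158 (edgeR adjusted p = 3.74e-12) and 3.58 ± 0.107 (edgeR adjusted p = 1.65e-17).

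Among the junction genes, 15 of 16 rose. The tight junction proteins Cldn4, Cldn6 and Cldn7 rose with log2 changes of 4.81, 4.85 and 4.93, and Crb3, a polarity protein, stood at 2.44 and 2.79 CPM in WT and 85.2 and 83.9 in K36M. All 4 keratins of simple epithelia rose, Krt8 from 26.5 and 27.2 to 769.9 and 709.7 CPM, and Krt7 by 6.65 on the log2 scale. Keratin counts are uncertain where near-identical copies share reads. Of the 9 transcription factors and splicing regulators 8 rose, among them Grhl2 (3.48) and Elf3 (4.53), and the splicing regulator Esrp1 was at 19.2 and 16.4 CPM in WT and 124 and 138 in K36M. Ehf, an epithelial ETS factor, was the exception: it stood at 39.7 and 43.4 CPM in WT and 1.07 and 4.78 in K36M, a log2 change of -3.80 ± 0.324 (edgeR adjusted p = 1.59e-08), or -3.12 without replicate 1 and -5.28 without replicate 2. All 7 surface proteases, inhibitors and sorting genes rose, led by Prss8, a membrane serine protease (6.07), and Ap1m2, the epithelial subunit of a sorting adaptor, went from 6.75 and 5.82 to 169 and 151 CPM.

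The 250 bases upstream of the starts of the epithelial genes were read for CAGGTG or CACCTG. ZEB and SNAIL repressors are known to bind this hexamer and its reverse complement. RefSeq promoters (build GRCm38.p6, matched by symbol, so on another build than the counts) were found for 23 of 36 epithelial genes, and 14 of them (60.9%) held the motif. It was present in 17.1% of 27025 promoters of the same length, in 16.0% of 11133 tested genes with a promoter, in 24.4% of those that rose at least 2-fold, in 13.6% of those that fell at least 2-fold, and in 3 of 24 mesenchymal genes (12.5%). A match is a description of letters and not a bound site. The upstream sequences of 4 genes that rose are shown with the motif in capitals, at chr9:21312334-21312583 (minus strand) for Ap1m2, chr17:57061951-57062200 (plus) for Crb3, chr17:87635729-87635978 (plus) for Epcam and chr15:102004343-102004592 (minus) for Krt8.
Ap1m2: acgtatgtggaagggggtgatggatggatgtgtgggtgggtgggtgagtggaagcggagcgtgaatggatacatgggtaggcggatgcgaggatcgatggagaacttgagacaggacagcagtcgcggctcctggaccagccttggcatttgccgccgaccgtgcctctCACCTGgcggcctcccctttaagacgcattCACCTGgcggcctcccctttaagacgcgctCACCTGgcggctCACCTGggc
Crb3: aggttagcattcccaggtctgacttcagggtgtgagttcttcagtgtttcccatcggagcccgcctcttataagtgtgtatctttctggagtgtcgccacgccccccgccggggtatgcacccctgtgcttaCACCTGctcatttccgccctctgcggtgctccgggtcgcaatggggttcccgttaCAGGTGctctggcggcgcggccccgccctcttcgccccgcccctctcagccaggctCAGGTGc
Epcam: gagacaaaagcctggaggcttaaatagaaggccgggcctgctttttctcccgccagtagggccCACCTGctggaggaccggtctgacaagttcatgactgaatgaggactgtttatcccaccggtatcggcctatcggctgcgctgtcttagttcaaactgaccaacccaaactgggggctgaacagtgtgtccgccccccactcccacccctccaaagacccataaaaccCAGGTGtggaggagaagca
Krt8: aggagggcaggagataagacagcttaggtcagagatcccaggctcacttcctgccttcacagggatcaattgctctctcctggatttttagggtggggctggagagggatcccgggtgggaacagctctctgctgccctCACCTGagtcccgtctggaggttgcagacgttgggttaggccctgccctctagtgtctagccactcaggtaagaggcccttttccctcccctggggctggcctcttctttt
Ap1m2 held 4 matches, Crb3 3, Epcam 2 and Krt8 1.

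Of the ZEB and SNAIL genes, Zeb2, Snai2 and Snai1 were lower in K36M. Whether their levels bear on those of the epithelial genes was not tested. Zeb2 was at 31.2 and 30.6 CPM in WT and 0.711 and 1.89 in K36M, a log2 change of -4.54 ± 0.215 (edgeR adjusted p = 2.42e-14), or -5.43 without K36M replicate 2 and -3.48 in the corrected fit. Snai2 was at 5.56 and 5.25 CPM in WT and 0.222 and 0.0803 in K36M, and Snai1 fell less, from 8.18 and 8.9 to 6.49 and 2.61 CPM. No value is given for Zeb1, which had too few counts to be tested under the identifier with the most counts. The deposited table lists it under more than 1 identifier, so its level is not judged here. The other mesenchymal transcription factors fell as well, so that 13 of 13 tested did (all tested genes 33.7%), also without either K36M library and in the corrected fit. Prrx1, a homeobox factor of limb and fibroblast mesenchyme, stood at 319 and 348 CPM in WT and 6.09 and 7.19 in K36M, and Twist1 at 40.8 and 42.1 CPM in WT and 3.02 and 1.73 in K36M. Both K36M libraries were low and close to each other for Prrx1, whose log2 fold change was -5.65 ± 0.175 (edgeR adjusted p = 2.41e-17), or -4.77 in the corrected fit.

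Over the whole mesenchymal and fibroblast list 35 of 39 tested genes fell, 2 rose and 2 did not pass, with a median of -3.31, or -3.15 with Osr1, at 0 counts in K36M, set to its bound. In adhesion and surface genes the fall included Cdh11, a mesenchymal cadherin, at 47.6 and 53.6 CPM in WT and 0.355 and 0.643 in K36M. Vim, the intermediate filament protein vimentin, stood at 5224 and 5292 CPM in WT and 319 and 296 in K36M, and Thy1, a fibroblast surface protein, at 115 and 129.5 CPM in WT and 37.8 and 27.2 in K36M. All 3 had K36M libraries below both WT libraries, and Thy1 had a log2 change of -1.91 ± 0.148. Of 18 matrix genes 15 fell, including Col1a1, a collagen I chain, from 441 and 389 to 59.7 and 38.7 CPM, and Thbs1, the matrix glycoprotein thrombospondin-1, from 3644 and 3754 to 41.1 and 61 CPM. Dcn and Lum, proteoglycans of low level here, rose with log2 changes of 0.72 ± 0.274 and 2.18 ± 0.857 (edgeR adjusted p = 0.0234 and 0.0278). Neither rise was stable: that of Dcn did not pass without K36M replicate 1 or in the corrected fit, and that of Lum did not without replicate 2 (1.40). In bulk RNA, fewer cells of a type and less RNA per cell cannot be told apart, and this holds for each of these falls.

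Smooth muscle cytoskeleton genes were divided. Of 14 members 10 fell, 3 rose and 1 did not pass, with a median of -1.01. Acta2, smooth muscle actin, was at 484 and 496 CPM in WT and 50.6 and 33.3 in K36M, a log2 change of -3.55 ± 0.159 (edgeR adjusted p = 9.92e-15). Mylk, a myosin kinase, fell by 3.99 on the log2 scale. Des, the muscle filament desmin, went the other way, from 1.84 and 1.44 to 24.5 and 14.9 CPM, as did Smtn (1.66) and Tpm2 (0.47). The call of Tpm2 was lost without K36M replicate 1 and in the corrected fit. In the corrected fit 8 members fell and 2 rose, and the falls of Synpo2 (-0.24 there) and Tpm1 (-0.17) did not pass.

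In the TGF-beta pathway 18 of 21 genes fell and 2 rose, with a median of -1.74. Of the ligands, Tgfb2 stood at 44.8 and 44.3 CPM in WT and 5.91 and 5.46 in K36M, and Tgfb3 at 53.9 and 53 CPM in WT and 7.42 and 4.38 in K36M, while Tgfb1 rose from 7.21 and 7.07 to 17.1 and 12.3. All 4 receptors and co-receptors fell, with Tgfbr2, the ligand-binding receptor, at 98.4 and 97 CPM in WT and 15.1 and 17.6 in K36M. Of the latent binders, which store the ligand in the matrix, Ltbp2 fell by 5.01 on the log2 scale and Ltbp4 rose by 2.52. The inhibitors Smad6, Smad7 and Ski fell, by 2.71, 0.68 and 0.95, and Smad7 had -1.29 without K36M replicate 1 and -0.25 without replicate 2. Skil, a further inhibitor, was at 86 and 96.9 CPM in WT and at 55.5 and 133 in K36M, on either side of WT: it passed as a rise without replicate 1 (0.54) and as a fall without replicate 2 (-0.72). All 6 responsive genes fell, among them Tgfbi, a matrix protein (-4.03).

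Hox genes, which record the position of a cell along the body axis, fell without exception in the test: 32 of 32 tested, with a median of -2.50, and 31 of them by at least 2-fold. Without K36M replicate 2 the falls of Hoxd9 and Hoxd10 did not pass. The A cluster had the lowest median (-3.28) and the C cluster the highest (-1.96). Hoxc8, the Hox gene with the most reads, was at 84.9 and 96.8 CPM in WT and 14.1 and 9.96 in K36M, and Hoxa4 was at 3.86 and 4.48 CPM in WT and 0.0889 and 0.0803 in K36M. No difference between clusters was tested.

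Of 31 pluripotency genes 30 rose and 0 fell, with a median of 3.45, and 26 rose by at least 2-fold. Nanog, a core transcription factor, was at 10.4 and 10.6 CPM in WT and 191 and 167 in K36M, a log2 change of 4.09 ± 0.119 (edgeR adjusted p = 1.09e-17). Esrrb, a nuclear receptor of the naive state, was at 2.71 and 2.12 CPM in WT and 141 and 58 in K36M, and Zfp42, a marker of naive cells, at 0.0919 and 0.0481 CPM in WT and 22.9 and 11.2 in K36M. Nanog was alike in both K36M libraries, while Esrrb and Zfp42 were clearly higher in replicate 1. Klf5 rose little (0.57 ± 0.114) and did not pass in the corrected fit. Tbx3 was at 14.6 and 13.5 CPM in WT and 23.9 and 9.6 in K36M, so that it passed as a fall without replicate 1 and as a rise without replicate 2.

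Genes were listed as RNA and chromatin regulators of pluripotent cells without a check of the role of each, Tcl1 and Fbxo15 included. They rose in 10 of 10 cases, with a median of 6.79, or 6.14 with Tcl1, at 0 counts in WT, set to its bound. Lin28a, an RNA-binding protein that blocks let-7 maturation, stood at 1.42 and 1.06 CPM in WT and 117 and 102 in K36M. Dppa3, a protein of oocytes and germ cells, stood at 0.23 and 0.193 CPM in WT and 36.4 and 23.9 in K36M. Trim71 rose least (0.65 ± 0.244) and did not pass without K36M replicate 2 (-0.03) or in the corrected fit. Alpl, the alkaline phosphatase used as a stain for such cells, was at 19.1 and 17.1 CPM in WT and 352 and 168 in K36M, and Fgf4, a growth factor, at 41.9 and 42.8 CPM in WT and 117 and 134 in K36M. Of the reprogramming factors, whose counts cannot tell transgene from endogenous reads, Pou5f1 (Oct4) was at 200.2 and 159 CPM in WT and 921 and 789.9 in K36M. Klf4 was at 229 and 181 CPM in WT and 65.9 and 70.1 in K36M. Sox2 and Myc did not pass, and their values turned on the replicate. Without replicate 1 their log2 changes were -0.78 and -0.89, and without replicate 2 they were -0.06 and 0.18. Both passed as falls in the corrected fit.

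Genes of the Nodal pathway, which shares SMAD2 and SMAD3 with TGF-beta and acts in early embryos, were read beside the TGF-beta list. Of 12 tested, 7 rose and 3 fell (all tested genes 37.3% and 33.7%). The ligand Nodal was at 7.21 and 6.26 CPM in WT and 86.2 and 68.2 in K36M, and the ligand Gdf3 at 3.4 and 3.61 CPM in WT and 49.9 and 28.1 in K36M. The co-receptor Tdgf1 rose from 5.47 and 3.66 to 435 and 316 CPM. The inhibitors Lefty1 and Lefty2, which are targets of the pathway, rose as well, Lefty2 from 1.42 and 1.16 to 244 and 208 CPM with a log2 change of 7.45 ± 0.171 (edgeR adjusted p = 4.12e-18). Foxh1, a transcription factor that works with SMAD2, was at 2.25 and 1.83 CPM in WT and 40.7 and 36.2 in K36M. The receptor Acvr2a and the transducers Smad3 and Smad4 fell, by 1.15, 1.08 and 0.48 on the log2 scale, and Acvr2a stood at -1.81 without K36M replicate 2. Gdf3 and Tdgf1 also belong to the pluripotency list.

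The histone genes were read in every library, since the labels name H3.3. H3f3a was at 212 and 218 CPM in WT and 179.7 and 189 in K36M, a log2 change of -0.22 ± 0.111 that did not pass (edgeR adjusted p = 0.0766). H3f3b was at 342 and 366 CPM in WT and 514 and 486 in K36M, and rose by 0.50 ± 0.0823 (edgeR adjusted p = 1.32e-05). Histone genes have near-identical copies, and a gene count cannot tell a K36M from a WT sequence, so neither gene checks the genotype labels. Of the H3.3 chaperones, Asf1a, Daxx and Dek rose, and Ubn1 and Cabin1 fell. Atrx was at 573 and 625 CPM in WT and 222 and 594 in K36M; replicate 1 was low and replicate 2 level with WT. Its call moved with this: it passed as a fall without replicate 2 and as a rise in the corrected fit.

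Genes were listed as H3K36 methyltransferases or demethylases without a check of the activity of each, Setd3, Setmar and Jmjd5 included. Of these, 11 of 14 changed (all tested genes 70.9%), 3 up and 8 down. This split was 1 and 6 without K36M replicate 1 and 5 and 5 in the corrected fit, and for Setd2, Nsd1 and Whsc1 the direction differed between the uncorrected and the corrected fit. Ash1l, a dimethyltransferase, stood at 125 and 121 CPM in WT and 16.1 and 27.8 in K36M. Both K36M libraries were far below WT, with log2 changes of -2.48 ± 0.243 in the uncorrected fit and -1.65 in the corrected one (edgeR adjusted p = 1.6e-08 and 7.46e-10). The demethylase Kdm4a was at 208 and 197 CPM in WT and 75.3 and 74.2 in K36M, and fell in both fits (-1.44 and -1.35). Kdm2a, another demethylase, fell in both as well (-1.12 and -0.71).

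Setd2, the enzyme that adds the third methyl group at H3K36, was at 138 and 132 CPM in WT and 77.9 and 116 in K36M, a log2 change of -0.48 ± 0.164 (edgeR adjusted p = 0.0124). Replicate 1 was well below WT and replicate 2 closer to it, and without replicate 1 the value was -0.22. In the corrected fit Setd2 passed as a rise, 0.32. Nsd1, a dimethyltransferase, was at 211 and 197 CPM in WT and 138 and 171 in K36M. Its fall (-0.40 ± 0.145, edgeR adjusted p = 0.0178) was -0.25 without replicate 1 and became a rise in the corrected fit (0.50). Whsc1, which codes for NSD2, went the same way (-0.31 and 0.78). Whsc1l1, which codes for NSD3, fell in the uncorrected fit (-1.14) and did not pass in the corrected one (-0.06). These transcripts are long, with exon lengths of 10537 bases for Setd2, 13123 for Nsd1, 15902 for Whsc1 and 16513 for Whsc1l1, in the quintile of genes where both K36M libraries lay below WT in the median. The short genes Setmar and Jmjd5 rose in the uncorrected fit (0.42 and 0.35) and passed neither in the corrected one nor without replicate 1. No direction can be given for Setd2, Nsd1 or Whsc1 from these libraries. Smyd2 fell and Setd3 rose in both fits.

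**Figure D4:**
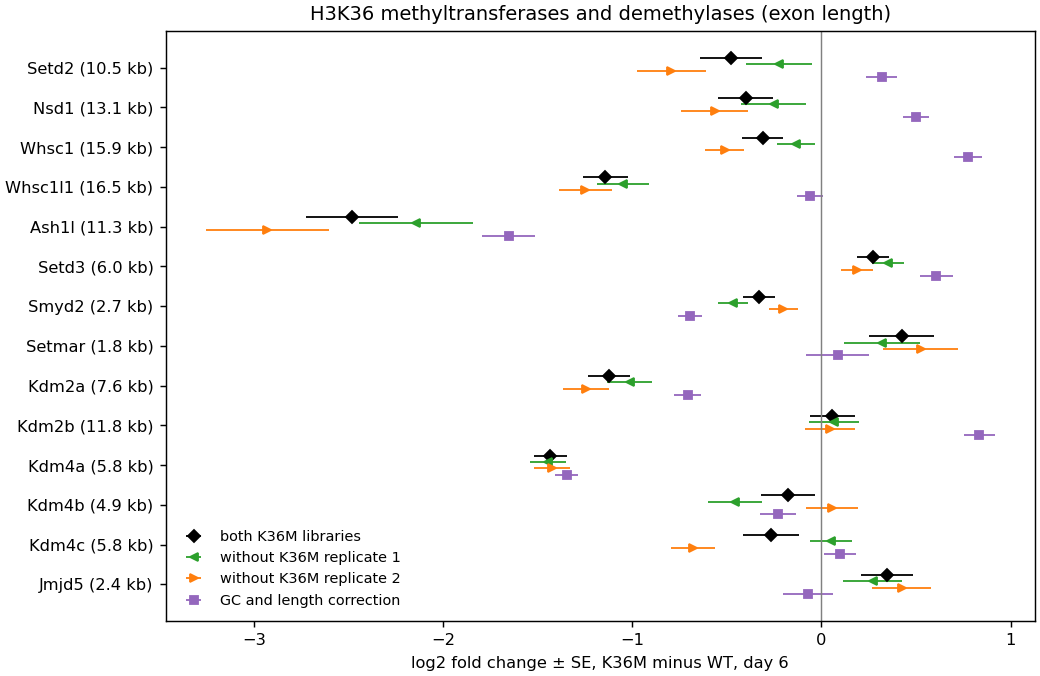
Log2 fold change ± SE, K36M minus WT at day 6, of 14 genes listed as H3K36 methyltransferases or demethylases. Fits are with both K36M libraries (black), without replicate 1 (green), without replicate 2 (orange) and the corrected fit (purple). Exon length is given beside each name. Ash1l, Kdm2a and Kdm4a stay below 0 throughout, while Setd2, Nsd1 and Whsc1 lie below 0 in the first 3 fits and above it in the corrected one.

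PRC2, the complex that methylates H3K27, had 7 of 12 genes higher and 2 lower (all tested genes 37.3% and 33.7%). Its catalytic subunit Ezh2 was at 80.8 and 81.1 CPM in WT and 169.7 and 151 in K36M, and the alternative subunit Ezh1 at 99.2 and 99.2 CPM in WT and 46.4 and 45.1 in K36M, so the catalytic genes moved in opposite directions, by 0.98 ± 0.0806 and -1.12 ± 0.0851 on the log2 scale (edgeR adjusted p = 2.76e-10 and 8.13e-11). Jarid2, an accessory subunit, was at 70.5 and 59.7 CPM in WT and 181 and 167 in K36M, with 1.42 in the uncorrected and 2.07 in the corrected fit. Aebp2, another accessory subunit, fell (-1.33 and -0.70). Suz12, a core subunit, was at 149 and 264 CPM in K36M, on either side of WT (174 and 186).

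The DNA methylation enzymes included some of the widest changes. Dnmt3b, a de novo methyltransferase, was at 15 and 10.3 CPM in WT and 246 and 228 in K36M, a log2 change of 4.23 ± 0.133 (edgeR adjusted p = 3.16e-17). Dnmt3l, its catalytically inactive partner, was at 0.138 and 0.0963 CPM in WT and 67.7 and 13.7 in K36M, with 8.37 ± 0.856, 6.80 without replicate 1 and 9.10 without replicate 2. Dnmt1 and Dnmt3a did not pass in the uncorrected fit (0.15 and -0.10) and passed as rises in the corrected one. Among the oxidising enzymes Tet1 rose from 7.4 and 6.4 to 58.2 and 57.9 CPM, and Tet3 fell from 66.5 and 54.2 to 11.6 and 13.8 CPM.

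Cell division genes rose in 24 of 24 cases, with a median of 1.31 that was 1.36 without K36M replicate 1, 1.26 without replicate 2 and 1.19 in the corrected fit. Mcm5, a subunit of the replicative helicase, was at 132 and 122 CPM in WT and 322 and 329 in K36M, and Ccnb2, a mitotic cyclin, at 46.2 and 41.1 CPM in WT and 196 and 192 in K36M. The K36M replicates were close for both genes. Mki67 rose least (0.45 ± 0.143) and did not pass without replicate 2. Of 17 Cdk inhibitors and p53 targets 11 fell and 3 rose. Cdkn1a, the inhibitor p21, was at 959 and 958 CPM in WT and 359 and 258 in K36M, a log2 change of -1.63 ± 0.103 (edgeR adjusted p = 2.87e-12). Ccng1, a p53 target, fell from 1397 and 1519 to 313 and 572 CPM. Trp53, which codes for p53, rose by 0.50 ± 0.111 (0.27 without K36M replicate 1), and Cdkn1c, another inhibitor, went from 2.57 and 3.56 to 18.9 and 8.35 CPM (2.15, or 1.45 without replicate 1 and 2.63 without replicate 2).

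Glycolysis genes rose in 14 of 17 cases and fell in 1, with a median of 0.81. The glucose transporter Slc2a3 was at 238 and 227 CPM in WT and 2002 and 2015 in K36M, a log2 change of 3.11 ± 0.097 (edgeR adjusted p = 2.65e-17). The lactate transporter Slc16a3 rose from 5.38 and 4.57 to 193 and 121 CPM. Hk1, a hexokinase, fell by 0.55 on the log2 scale. Some smaller rises lost their call: those of Pgam1 and Pkm2 did not pass in the corrected fit, and that of Slc16a1 did not without replicate 2.

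Interferon response genes were mixed, with 11 of 20 higher and 5 lower (all tested genes 37.3% and 33.7%). Their median log2 change was 0.81, or 0.40 without K36M replicate 1 and 1.32 without replicate 2. Bst2, an antiviral membrane protein, was at 41.3 and 46.3 CPM in WT and 351 and 264 in K36M. B2m, the light chain of MHC class I, fell from 140.0 and 157 to 83.6 and 79.8 CPM. AP-1 factors split 4 up and 6 down: Fosl2 fell from 127 and 123 to 31.2 and 35.6 CPM, and Jund rose from 59.6 and 53.8 to 126 and 105. Fos, Fosb and Fosl1 fell as well, Fosl1 from 4.87 and 7.03 to 1.56 and 2.17 CPM. The fall of Jun was slight (-0.26 ± 0.0981) and did not pass without K36M replicate 2.

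Germline genes rose in 12 of 18 cases and fell in 1, with a median of 3.54, or 3.33 with genes at 0 counts in a group set to their bound. Piwil2, a protein of the piRNA pathway, was at 1.56 and 0.626 CPM in WT and 37.3 and 34.6 in K36M. Sycp3, a component of the synaptonemal complex, was at 0 and 0.0963 CPM in WT and 3.73 and 3.69 in K36M, and Ddx4, an RNA helicase of germ cells, at 0.322 and 0.433 CPM in WT and 3.6 and 5.02 in K36M. Both K36M libraries were above both WT libraries for these genes. Hormad1, a meiotic chromosome protein, had 0 counts in WT and was at 2.36 and 0.803 CPM in K36M, at least 21.8-fold higher. Stra8 and Tex11 did not pass without K36M replicate 1. Rec8, a meiotic cohesin that WT cells expressed, was at 95.4 and 91 CPM in WT and 72.5 and 33.4 in K36M, and fell by 0.82 on the log2 scale (-1.48 without replicate 1 and -0.36 without replicate 2).

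Promoters of 16 germline genes were found, and 9 of them (56.2%) held CACGTG, an E-box that reads the same on both strands and that MYC-family factors are known to bind. The motif was in 6.05% of all promoters, in 8.17% of tested genes, and in 7.59% of genes that rose and 7.58% of those that fell at least 2-fold. It does not contain and is not contained in the hexamer read above, which was found in 4 of the 16 (25%). The sequences of 3 genes that rose show where CACGTG lies, in capitals, at chr3:95559427-95559676 (plus strand) for Hormad1, chr10:88459337-88459586 (plus) for Sycp3 and chr13:112652311-112652560 (minus) for Ddx4.
Hormad1: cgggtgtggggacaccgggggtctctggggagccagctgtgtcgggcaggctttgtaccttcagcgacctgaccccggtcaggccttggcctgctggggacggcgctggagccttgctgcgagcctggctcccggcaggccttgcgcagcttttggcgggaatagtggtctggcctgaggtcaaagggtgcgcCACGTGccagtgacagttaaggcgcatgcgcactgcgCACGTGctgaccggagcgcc
Sycp3: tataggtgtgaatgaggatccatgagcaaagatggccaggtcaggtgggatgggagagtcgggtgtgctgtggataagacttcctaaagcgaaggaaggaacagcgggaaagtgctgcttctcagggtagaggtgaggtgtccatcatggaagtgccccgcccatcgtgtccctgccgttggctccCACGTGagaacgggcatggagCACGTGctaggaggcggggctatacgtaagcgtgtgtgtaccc
Ddx4: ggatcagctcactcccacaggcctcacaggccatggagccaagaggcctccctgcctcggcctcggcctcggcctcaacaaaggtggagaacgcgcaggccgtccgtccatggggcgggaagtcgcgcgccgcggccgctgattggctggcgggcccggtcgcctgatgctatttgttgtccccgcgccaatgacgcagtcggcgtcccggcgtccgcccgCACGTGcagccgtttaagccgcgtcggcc
Hormad1 and Sycp3 held 2 matches each and Ddx4 1.

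Markers of other cell types were read as whole lists. Trophoblast markers rose in 10 of 11 tested, with summed levels of 16.5 to 20.1 CPM in WT and 99.1 to 145 in K36M. Tfap2c, a transcription factor of trophoblast and germ cells, made up much of this, at 12.4 and 9.34 CPM in WT and 70.1 and 50.7 in K36M, and Gata3 was at 2.39 and 2.36 CPM in WT and 24.2 and 18.1 in K36M. Cdx2 and Hand1, which define the lineage, rose from at most 2 counts a library in WT to low levels in K36M, Cdx2 to 1.51 and 0.924 CPM and Hand1 to 2.27 and 2.01. The homeobox genes Rhox6 and Rhox9 had the largest fitted changes of the list: Rhox6 had 0 and 1 counts in WT and was at 9.51 and 5.38 CPM in K36M, and Rhox9 had 0 counts in WT and was at 2.58 and 0.442 CPM in K36M. The placental genes Tpbpa and Prl3d1 had too few counts to be tested.

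Keratinocyte markers rose in 8 of 12 and fell in 1, with sums of 42.7 to 48.2 CPM in WT and 554 to 687 in K36M. Sfn, the protein 14-3-3 sigma, which other epithelia also express, held most of that sum, at 39.6 and 35.7 CPM in WT and 599 and 458 in K36M. Krt17 was at 0.322 and 0.337 CPM in WT and 44.4 and 40 in K36M and Krt14 at 0.505 and 0.578 CPM in WT and 21.6 and 25.2 in K36M. Trp63, the defining transcription factor of the lineage, stood at 0.276 and 0.578 CPM in WT and 0.0889 and 0.0402 in K36M, a fall that did not pass without replicate 2 or in the corrected fit, and Ivl, a marker of mature keratinocytes, was below 0.1 CPM in all 4 libraries.

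Endothelial markers were divided, 6 up and 3 down of 10 (all tested genes 37.3% and 33.7%), with sums of 102 to 109 CPM in WT and 123 to 128 in K36M. Pecam1, which pluripotent cells also express, rose from 0.0919 and 0.289 to 10.2 and 6.1 CPM, and Tie1, an endothelial receptor kinase, from 0 and 0.0963 to 3.73 and 3.86 CPM. Flt1, Vwf, Esam and Egfl7 rose with log2 changes of 2.48 to 2.94 (2.02 to 2.65 without replicate 1 and 2.12 to 3.78 in the corrected fit). Tek, Kdr and the defining cadherin Cdh5 fell, Cdh5 to 0.0889 and 0.0803 CPM (a call lost without either K36M library), and Emcn had 0 counts in all 4. Macrophage markers summed to 20.8 and 24.3 CPM in WT and to 14.5 and 10.2 in K36M, 1 rose and 3 fell of 10 (2 and 6 in the corrected fit), and Ptprc had 0 counts in 3 of the 4 libraries. Primitive endoderm markers had 4 up and 3 down of 9. The rises were of Gata4, Sox17, Hnf4a and Afp, each with at most 3 counts a library in WT and at or below 1.29 CPM in K36M, and that of Hnf4a did not pass without K36M replicate 1. The falls were of Col4a1, Lama1 and Dab2, which other cells also express. Muscle markers had 3 up and 2 down of 6, with sums of 28.4 to 30.1 CPM in WT and 9.44 to 17.3 in K36M, and Myod1, Myog and Myf5 had too few counts. Of 10 neuron markers 5 rose and 4 fell, with sums of 524 to 542 CPM in WT and 377 to 389 in K36M, while Map2 and Sox1 were not analysed here. Ncam1, also a mesenchymal adhesion protein, fell from 56.8 and 61.1 to 3.87 and 1.97 CPM, and Dcx to 0.0889 and 0.0803 CPM, while Syp, a synaptic vesicle protein, rose from 0.551 and 0.866 to 3.38 and 2.49 CPM. The other rises were of Pax6, of Rbfox3, which had 0 counts in WT and 8 and 4 in K36M, of Stmn2, and of Tubb3, which did not pass in the corrected fit. The part of such cells in the results above was not tested.

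The genes on which the K36M replicates differed most were read by a rule of their own. Higher in replicate 1 were Dnmt3l, Aire, Rasgrp4 (at 13.3 and 4.02 CPM in K36M) and Tmem191c (10.6 and 3.09). Lower in replicate 1 were Atp7a, a copper transporter (0.978 and 14.3), Pgap1 (1.78 and 21.8), Lmbrd2 (1.82 and 21.6) and Zfp871 (1.16 and 14). For Atp7a both WT libraries stood at 35.2 CPM, so that both K36M libraries were below WT and replicate 1 by far the more. Pgap1 was at 13.9 and 14.4 CPM in WT, between the K36M replicates. Its log2 fold change was -0.25 ± 0.523 with both (edgeR adjusted p = 0.68), 0.62 without replicate 1 and -2.99 without replicate 2. Lmbrd2 did not pass with both (-1.11 ± 0.516, edgeR adjusted p = 0.0626) and had -3.81 without replicate 2. No direction is given for Pgap1 or Lmbrd2.

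The day 6 difference was then set against that of other days, by testing whether K36M minus WT at d6 differed from K36M minus WT at d0, d4 and d8. The 3 tests share the d6 libraries, so they are not independent of each other. It differed from d0 for 9418 genes (55.6%), 4569 higher at d6 (27%) and 4849 lower (28.6%). From d4 it differed for 6458 genes (38.1%), 2881 higher (17%) and 3577 lower (21.1%), and from d8 for 6591 genes (38.9%), 3554 higher (21%) and 3037 lower (17.9%). The length pattern of the d6 libraries stands in each of these tests, and it was not seen at d4 or d8.

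Epithelial genes differed between genotypes less at d6 than at d4 and more than at d8. The d6 difference was below that of d4 in 21 of 36 (all tested genes 21.1%) and above it in 3 (17%). It was above that of d8 in 31 (all tested genes 21%) and below it in 1 (17.9%). For Cdh1, WT went from 23.2 and 19.9 CPM at d4 to 142 and 117 at d6 and 358 and 321 at d8. K36M stood at 698 and 672 CPM at d4, 638 and 804 at d6 and 918 and 923 at d8. WT thus moved by far the more over these days, and the difference at d6 minus that at d4 was -2.51 ± 0.22 (edgeR adjusted p = 3.02e-08). Nanog showed the same order, with WT at 0.265 and 0.254 CPM at d4, 10.4 and 10.6 at d6 and 73 and 82.1 at d8, and K36M at 52.3 and 55.7, 191 and 167 and 217 and 211.

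Pluripotency genes had a d6 difference above that of d8 in 22 of 31 (all tested genes 21%) and below it in 3 (17.9%). Against d4, 2 were above and 7 below (all tested genes 17% and 21.1%). Dppa5a, at 0.0919 and 0.241 CPM in WT at d6, was at 43.8 and 35.8 in WT at d8, while K36M was at 399.7 and 135 and 356 and 351. Its difference at d6 minus that at d8 was 7.46 ± 0.907 (edgeR adjusted p = 1.53e-05). Ooep, Rbmxl2 and Nlrp4f, genes of oocytes and germ cells, had the same course, with WT at or below 0.0481 CPM at d6 and between 0.415 and 1.83 CPM at d8. In the germline list 1 of 18 differences was above and 3 below those of d8 (all tested genes 21% and 17.9%).

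Mesenchymal genes had a d6 difference below that of d0 in 36 of 39 (all tested genes 28.6%). It was below that of d4 in 25 of 39 (all tested genes 21.1%). Against d8, 9 were above and 5 below (all tested genes 21% and 17.9%). Before reprogramming, at d0, Fbn2 was higher in K36M (363 and 342 CPM) than in WT (92.9 and 139), and Prelp likewise (8.66 and 7.74 against 1.45 and 1.99). By d6 both were the lower in K36M, with differences from d0 of -8.74 ± 0.414 and -9.39 ± 0.25 (edgeR adjusted p = 4.7e-13 and 2.44e-17). Prelp rose in WT over this time, to 114 and 109 CPM at d6, whereas Il1rl1, an interleukin-33 receptor, fell in both genotypes, from 60.9 and 62.1 CPM in WT and 229 and 235 in K36M at d0 to 0.414 and 0.674 and 0 counts at d6. Hox genes had a d6 difference below that of d0 in 31 of 32 (all tested genes 28.6%). It was below that of d4 in 19 (21.1%), and above that of d8 in 13 (21%) and below it in 1 (17.9%).

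Some genes switched between d4 and d6. Bnip3, a mitophagy receptor, was lower in K36M at d4 (9.4 and 12.4 CPM against 33.2 and 27.9 in WT) and higher at d6 (104 and 110.3 against 28.2 and 29.6), a difference of 3.37 ± 0.205 (edgeR adjusted p = 2.82e-10). Igfbp2, an IGF-binding protein, did the same, from 3.25 and 4.41 against 11.3 and 10.1 CPM at d4 to 154 and 49.2 against 17.7 and 18.7 at d6, with a wide gap between the K36M replicates. Klhl13, a ubiquitin ligase adaptor, was near equal at d4 (7.87 and 9.58 in K36M, 6.79 and 7.58 in WT) and stood at 98.6 and 118 in K36M and 6.66 and 7.65 in WT at d6. Glycolysis genes had a d6 difference above that of d4 in 10 of 17 (all tested genes 17%) and below it in 0 (21.1%). These counts are of the uncorrected fit, and the length pattern was seen at d6 and not at d4. Whether they follow from that pattern was not tested.

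Nr5a2, a nuclear receptor of the pluripotency network, moved the other way: K36M went from 25.6 and 24 CPM at d4 to 7.38 and 11.2 at d6 while WT rose from 0.159 and 0.0634 to 2.76 and 2.94, and the difference fell by 6.17 on the log2 scale (edgeR adjusted p = 6.04e-09). Cyp2b23, Tnk1 and Krt17 were silent or nearly so in WT at d4, with at most 1 count a library, so their differences from d4 are fitted values without a firm size.

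Lowest at d6 against d8 were Pappa and the long genes Aak1, Atxn1 and Igsf9b. Aak1, a kinase of endocytosis, was at 1.29 and 4.5 CPM in K36M at d6, below the 16.9 and 14.1 of WT, and at 14 and 12.3 and 7.59 and 10.7 at d8. Atxn1 and Igsf9b were also low in both K36M d6 libraries and lower in replicate 1 (0.933 and 3.25 and 1.6 and 7.11 CPM), and above WT at d8. The listed H3K36 enzymes had d6 differences below those of d8 in 10 of 14 (all tested genes 17.9%) and above them in 0 (all tested genes 21%). These are counts of the uncorrected fit. Long transcripts are among them, and the length pattern was seen at d6 and not at d8. Whether the split follows from that pattern was not tested. Setd2 in K36M was at 193 and 187 CPM at d4, 77.9 and 116 at d6 and 181 and 183 at d8, and no direction is given for it here either.

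**Figure D5:**
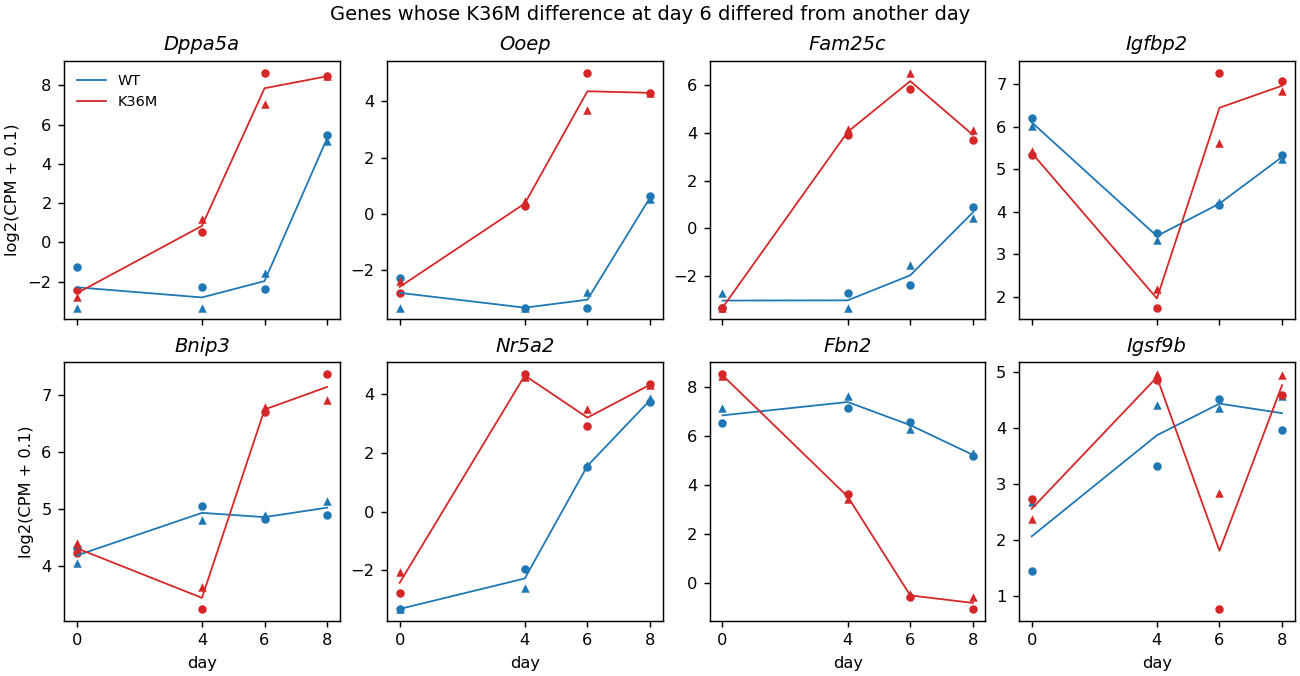
Log2(CPM + 0.1) of 8 genes in WT (blue) and K36M (red) at days 0, 4, 6 and 8; points are libraries, circles for replicate 1 and triangles for replicate 2, and lines join the means. WT Dppa5a and Ooep rise between days 6 and 8, K36M Bnip3 and Igfbp2 cross WT between days 4 and 6, and Igsf9b in K36M dips at day 6 with the replicates far apart.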

How the data were processed

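Gene counts of 28 poly(A) RNA-seq libraries in 14 groups of 2 were used as deposited; STAR 2.5.0, HTSeq 0.11.2, edgeR and the build mm9 are named in the submitters' processing notes, and the annotation, strand setting and treatment of multi-mapping reads were not given in the sources used here. Libraries were directional and made from poly(A)-selected RNA, per the labels' protocols. Of 37620 gene identifiers 37205 (98.9%) were matched to GENCODE vM1 for GC content and exon length, and 0 columns were left unused.

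Counts were filtered with edgeR's filterByExpr (minimum count 10, total 15), scaled by TMM and fitted by group over all 28 libraries with robust quasi-likelihood dispersions (edgeR 4.0.16, R 4.3.3), two-sided, with Benjamini-Hochberg adjustment over 16932 genes and a threshold of 0.05. The tests were checked on simulated data with the same spread in every group. That check does not cover the wider spread of K36M d6. Alternatives were DESeq2 1.42.0, its size factors, no filter, a replicate block, corrections for GC content and for GC content and exon length (lowess, span 0.3), the 4 day 6 libraries alone, and each library left out. Intervals and floors (3 counts) cover counting error only.

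Genes were named by rule: the 12 largest rises and 12 largest falls among called genes of at least 5 CPM on average whose groups did not overlap, leaving out predicted, clone, pseudogene and ribosomal protein names; for each comparison of days the 4 highest and 4 lowest; in each role of each list the up to 2 called members with the largest change; a fixed set of genes; and the 4 genes highest and 4 lowest in K36M replicate 1 against replicate 2. Other list members named in the text were chosen after their values were seen. The comparison, members and lists were chosen with earlier results of these data known. Some genes that the rule names are not reported here. Gene lists were not tested as sets.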

Additional observations from a re-analysis of the deposited data

Results flagged for a closer look

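These results were singled out because a test found that the K36M minus WT difference at d6 differed from that of another day. It did so for 9418 genes against d0, 6458 against d4 and 6591 against d8 (edgeR quasi-likelihood test). The values are log2 differences at d6 minus those of the other day.

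Against d0, the highest were Dppa4 (12.14), Dppa5a (11.76), Fam25c (11.30) and Lefty2 (10.86). Each of these had a group at or near 0 counts at d0, so the sizes depend on the prior count and are no bounds. Without WT d0 replicate 2 the calls of Dppa4, Fam25c and Lefty2 were lost, and without WT d0 replicate 1 that of Dppa5a. The lowest were Fmod (-9.71), Prelp (-9.39), Fbn2 (-8.74) and Il1rl1 (-8.57), the last with 0 counts in both K36M d6 libraries.

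Against d4, the highest were Igfbp2 (3.95), Klhl13 (3.65), Bnip3 (3.37) and B3gnt5 (3.26). Igfbp2 had 2.90 without K36M d6 replicate 1 and 4.55 without replicate 2. The lowest were Nr5a2 (-6.17), Cyp2b23 (-5.56), Tnk1 (-5.29) and Krt17 (-4.19). The call of Krt17 was lost without either WT d4 replicate.

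Against d8, the highest were Rbmxl2 (7.5), Dppa5a (7.46), Ooep (5.79) and Nlrp4f (5.78), of which Rbmxl2 and Nlrp4f had 0 counts in WT at d6. The lowest were Pappa (-3.39), Aak1 (-2.91), Atxn1 (-2.78) and Igsf9b (-2.76). The call of Pappa was lost without either K36M d6 replicate, with -3.45 without replicate 1 and -3.32 without replicate 2. Without K36M d6 replicate 1, Aak1, Atxn1 and Igsf9b had -2.29, -2.17 and -2.07, and without replicate 2 they had -4.09, -3.97 and -4.22.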

How the results depend on the processing

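The count of genes that differed at d6 was 12041 with DESeq2's size factors, 11728 with DESeq2, 11900 of 25652 genes without a filter, 12173 with GC correction and 11964 with GC and length correction, the last chosen after seeing the data. The 4 day 6 libraries alone gave 7731 of 14863 tested genes, with fewer samples to estimate the spread and none from groups of other days. Leaving out 1 library gave 10698 to 12312 genes at d6, 5920 to 7043 of at least 2-fold, 8275 to 10434 for the difference from d0, 4615 to 8492 from d4 and 5219 to 8480 from d8, and 339 to 353 of the list members. Under GC and length correction Setd2 (0.32), Nsd1 (0.50) and Whsc1 (0.78) turned to rises. Pgap1 turned to 0.62 without K36M d6 replicate 1 and stood at -2.99 without replicate 2. The cause was not tested. With the replicate number as a block 12031 genes were called, or 12173 with GC correction as well. Same-numbered d6 libraries deviated together with a correlation of 0.235. Over 91 pairs of groups this correlation ran from -0.57 to 0.60, and 24 pairs passed 0.1. Same-numbered libraries thus did not deviate together in every group, and the numbers were not taken as a pairing. A batch shared by libraries of unlike number was not tested. Genes with few counts in 1 group limit the precision at this depth.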
